A study of Mus musculus with 8 samples.

Results

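The genes described here were those in which loss of MKRN1 went with a difference of the same direction in liver and in adipose tissue. A gene was a member when both MKRN1-null values lay on the same side of both wild-type (WT) values, in the same direction in liver and in adipose tissue. Of 9917 genes with an FPKM of at least 1 in at least 2 libraries of each tissue, 2385 were members (24% of the genes), 2245 of them lower in MKRN1-null (22.6%) and 140 higher (1.41%). FPKM is the number of fragments per kilobase of transcript, scaled to the number of mapped fragments in the library. Because the members were chosen by these same FPKM values, their separation and its size are given as a description, and no test of the genotype is given for them.

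MKRN1 is a RING-finger E3 ubiquitin ligase, an enzyme that marks other proteins for degradation by the proteasome. Its described substrates include p53, p21, PPARγ and the α subunits of AMPK, the kinase that senses low cellular energy and restrains the synthesis of fatty acids and sterols. Liver and adipose tissue store and release lipid together, and both take up macrophages and lay down matrix when mice become obese on a high-fat diet (HFD).

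The mRNA was sequenced in 8 libraries, 2 for each of 4 groups, which were WT liver, MKRN1-null liver, WT adipose tissue and MKRN1-null adipose tissue. All came from male C57BL/6 mice aged 24 weeks by the labels, given an HFD for 19 weeks from an age of 6 weeks, numbers that do not add up exactly, and the adipose tissue was subcutaneous. The MKRN1-null mice carried the null allele in the whole body, had been backcrossed to C57BL/6, and were bred with their WT littermates from heterozygous parents. The libraries of liver and adipose tissue share replicate numbers and animal-like codes, so the 4 libraries of a genotype may come from 2 mice, which the labels do not state.

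The depth implied by coverage and FPKM was 5.72 to 9.24 gigabases aligned per library. The liver libraries held the 12 hepatocyte markers at a summed FPKM of 74823 to 89029, and the adipose libraries held the 8 adipocyte markers at 22815 to 47485. MKRN1-null adipose tissue replicate 2 stood apart. Genes of skeletal muscle contraction held 26.9% of its FPKM, against 0.0536% to 0.135% in the other adipose libraries, and its 10 muscle markers, all detected, summed to 81619 FPKM against 29.5 to 230 in those libraries. In MKRN1-null adipose tissue replicate 1 the 3 red blood cell markers summed to 3244 FPKM, against 86.6 to 171 in the other adipose libraries. The part of these differences in the results below was not tested. Values without replicate 2 are given beside some of the results, with the caution that a rule asking for fewer values can only gain members. In bulk tissue, fewer cells of a type and less RNA per cell cannot be told apart.

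Mkrn1 itself (chr6:39397816-39420369 in mm10) was 9.42 and 10.1 FPKM in WT liver and 2.86 and 2.21 in MKRN1-null liver. The WT adipose libraries held 16.8 and 19.3 FPKM, against 4.58 and 2.90 in the MKRN1-null ones. Every MKRN1-null library was therefore below every WT library, as the labels require. The remaining signal came from exons 1 to 3 of the 8 exons of transcript NM_018810, whose coverage in MKRN1-null liver was 90.3%, 114% and 89.3% of WT, and in MKRN1-null adipose tissue 58.2%, 89.0% and 70.1%. Exons 4 to 8 were listed at a coverage of 0 in all 4 MKRN1-null libraries, and at 7.68 to 23.2 FPKM units in the 4 WT libraries.

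**Figure D1:**
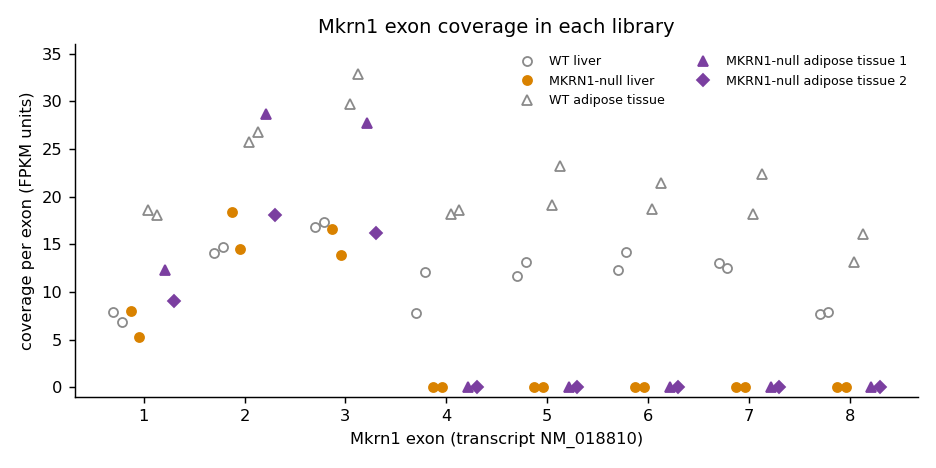
Coverage of each exon of Mkrn1 in the 8 libraries, with the exon number on the x axis and the coverage in FPKM units (coverage divided by the coverage that equals 1 FPKM in that library) on the y axis; each point is 1 library. Exons 1 to 3 are covered in every library, and exons 4 to 8 are at 0 in all 4 MKRN1-null libraries.

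The share of genes separated by genotype was large in each tissue by itself. In liver 5914 genes were lower in MKRN1-null (59.6%) and 971 were higher (9.79%), and in adipose tissue 3438 were lower (34.7%) and 926 were higher (9.34%). The 2245 shared lower genes were 37.96% of the genes lower in liver, beside the 34.7% of all tested genes that were lower in adipose tissue. They were 65.3% of the genes lower in adipose tissue, beside 59.6% of all tested genes in liver. The 140 shared higher genes were 14.4% of the genes higher in liver and 15.1% of those higher in adipose tissue, beside 9.34% and 9.79% of all tested genes. On FPKM the overlap of the lower genes was thus near the background. On median-of-ratios values the shared lower genes were 34.4% of those lower in liver, beside 22.9% of all genes lower in adipose tissue, and 47.3% of those lower in adipose tissue, beside 31.5% of all in liver. On quantile values the corresponding shares were 34.3% beside 22.0%, and 42.5% beside 27.3%.

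The whole distribution was shifted in FPKM. The median difference on the log2(FPKM + 1) scale, MKRN1-null minus WT, was -0.18 in liver and -0.18 in adipose tissue over all tested genes. The adipose shift lay mostly in replicate 2 of MKRN1-null, at a median of -0.35 from the WT mean, against -0.03 in replicate 1. Replicate 2 was the lower of these 2 libraries in 74.2% of all tested genes and in 93.0% of the lower members. Members lower in both tissues had medians of -0.37 in liver and -0.50 in adipose tissue, and members higher in both had medians of 0.26 and 0.33. In adipose tissue the difference of the lower members lay mostly in replicate 2, with a median of -0.77 from the WT mean, against -0.21 in replicate 1. In liver the 2 replicates lay at -0.36 and -0.38.

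**Figure D2:**
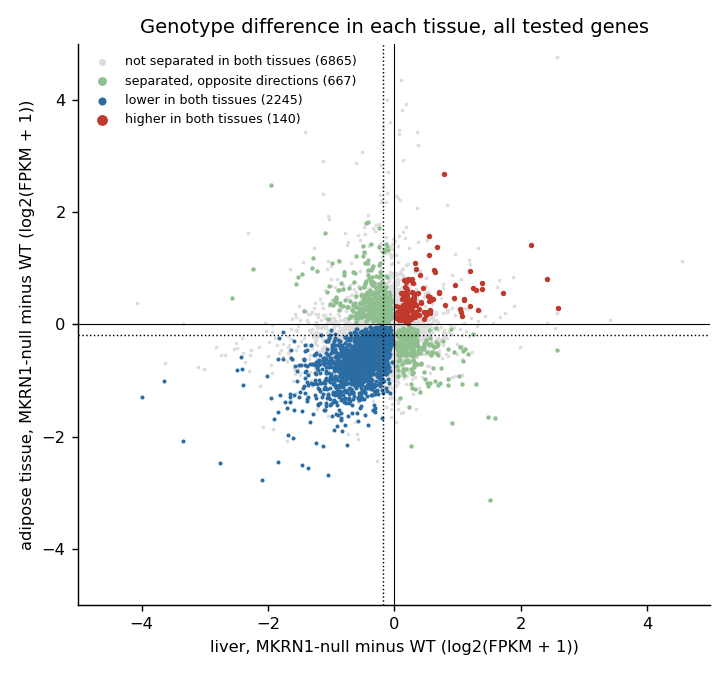
Difference between MKRN1-null and WT in liver (x axis) and adipose tissue (y axis), both as means of log2(FPKM + 1), for the 9917 tested genes; each point is a gene, colours give the set and dotted lines mark the median of all genes. The cloud is centred below 0 on both axes, at -0.18 in liver and -0.18 in adipose tissue, and the 2245 lower members outnumber the 140 higher ones.

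The balance of lower and higher members depended on the scaling. After division by median-of-ratios size factors within each tissue, which set the median difference near 0, there were 1075 lower genes (10.8%) and 999 higher genes (10.1%), so the lower share of members went from 94.1% to 51.8%. Quantile normalization gave 928 lower and 1224 higher genes. All 140 higher members and 1075 of the 2245 lower members were still separated in the same direction after median-of-ratios scaling. With TPM the lower genes were 3397 and the higher genes 77.

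At all 5 scalings, which were FPKM, TPM, FPKM rescaled without muscle genes, median of ratios and quantile, 834 members were lower (8.41%) and 77 were higher (0.776%). This criterion was chosen after the data were seen, and a member that met it is called separated at every scaling. FPKM, TPM and FPKM rescaled without muscle genes each gave many more lower than higher genes, so few higher genes could meet it. It could pass no more than the 77 higher genes of TPM, so the balance of 834 and 77 still depends on scaling. After median-of-ratios scaling without replicate 2 of MKRN1-null adipose tissue, 1427 genes (14.4%) were lower and 1412 (14.2%) were higher under that looser rule. On FPKM without that library, 2714 genes were lower (27.4%) and 381 higher (3.84%). Asking in addition for a difference of at least 0.58 on the log2 scale in each tissue left 458 lower members (4.62%), 12 higher members (0.121%) and 39 genes that differed in opposite directions (0.393%).

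**Figure D3:**
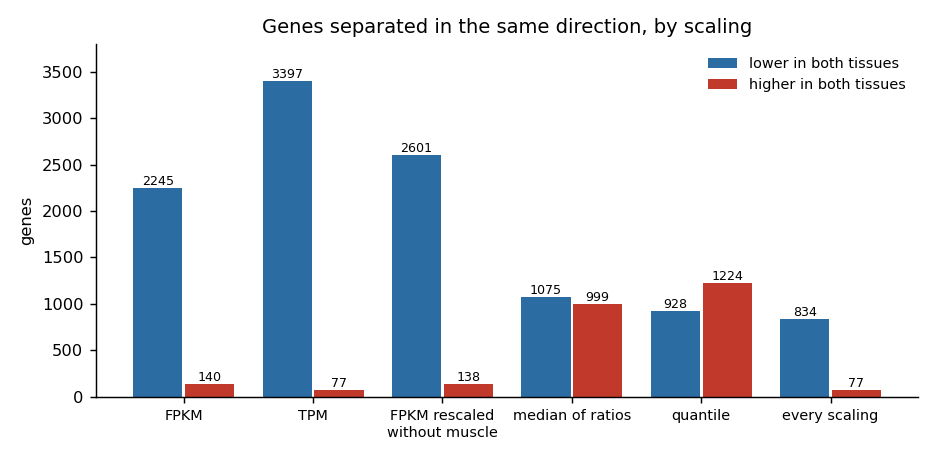
Number of genes separated in the same direction in both tissues (y axis) at each scaling (x axis), lower in MKRN1-null in blue and higher in red. Lower genes outnumber higher genes on FPKM (2245 and 140), TPM and FPKM rescaled without muscle genes, are about as many after median-of-ratios scaling (1075 and 999), and are fewer after quantile normalization (928 and 1224).

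A fit by limma of all 8 libraries, with genotype as the effect and tissue as a covariate, called 7 genes lower (0.0706%) and 1 gene higher (0.0101%) at an adjusted p below 0.05. It rests on the contrast that chose the members, so nothing is read from it. The 7 were Mkrn1, Tnfrsf12a, Lcn2, Plac9b, Sox4, Lhx6 and Mir8101, and the higher gene was Slc43a1, all of them members at every scaling. Sox4 passed the filter in liver through the WT libraries, as both MKRN1-null liver values were under 1. Lhx6 did so in adipose tissue, where both MKRN1-null values were under 1. Without replicate 2 of MKRN1-null adipose tissue the fit called 73 lower and 8 higher genes.

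The 12 members lower in both tissues that are described first had, provisional gene names aside, the largest differences in the tissue where each was smaller. They include secreted and receptor proteins of inflammation, matrix proteins and genes of uncertain read assignment. Lcn2, which encodes lipocalin 2, an iron-siderophore carrier released in inflammation, was 62.3 and 51.2 FPKM in WT liver and 7.08 and 2.98 in MKRN1-null liver. Its adipose values were 7.12 and 8.88 FPKM for WT against 1.502 and 0.798 for MKRN1-null. Its mean log2(FPKM + 1) differed from WT by -3.34 in liver and -2.08 in adipose tissue. No value of a genotype reached the other in its tissue, as the rule requires.

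Tnfrsf12a (chr17:23675445-23677449), the receptor of the cytokine TWEAK, was 17.2 and 14.8 FPKM in WT liver and 4.82 and 5.54 in MKRN1-null liver. The WT adipose libraries held 51.0 and 54.4 FPKM, against 18.4 and 16.4 in the MKRN1-null ones. Its groups were far apart in both tissues, and the MKRN1-null adipose replicates lay close together. Trem2, a lipid receptor of macrophages, was 5.31 and 5.55 FPKM in WT liver and 0.730 and 0.876 in MKRN1-null liver. Its adipose values were 23.5 and 58.8 FPKM for WT against 20.1 and 1.304 for MKRN1-null. Here the first MKRN1-null value came close to the lower WT value, and replicate 2 made most of the difference. Ubd, a ubiquitin-like protein induced by cytokines, was 11.5 and 10.2 FPKM in WT liver and 1.12 and 0.460 in MKRN1-null liver. The WT adipose libraries held 327 and 296 FPKM, against 201 and 14.8 in the MKRN1-null ones, so its replicates differed widely there. Rgs1, a regulator of G protein signalling in leukocytes, was 6.51 and 1.62 FPKM in WT liver and 0.410 and 0.360 in MKRN1-null liver. In adipose tissue it was 11.2 and 10.9 in WT and 5.46 and 0.448 in MKRN1-null. Trem2 and Rgs1 passed the filter in liver through the WT libraries, as both MKRN1-null liver values of each were under 1.

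The matrix members were Lum and Serpinh1. Lum, which encodes lumican, a proteoglycan that orders collagen fibrils, was 12.2 and 9.36 FPKM in WT liver and 2.04 and 2.23 in MKRN1-null liver. Its adipose values were 117 and 118 FPKM for WT against 62.2 and 20.3 for MKRN1-null. Serpinh1, the chaperone of collagen in the endoplasmic reticulum, was 16.7 and 12.4 FPKM in WT liver and 2.80 and 5.95 in MKRN1-null liver, and was 231 and 457 in WT adipose tissue against 167 and 75.5 in MKRN1-null. Fam83a was 3.94 and 3.09 FPKM in WT liver and 0.485 and 0.292 in MKRN1-null liver. Its adipose values were 28.8 and 26.8 in WT and 17.5 and 4.64 in MKRN1-null. It passed the filter in liver through the WT libraries, as both MKRN1-null liver values were under 1.

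The other 3 shared reads with neighbouring or near-identical genes. Tmem254c and Plac9b lie in a stretch of chromosome 14 that holds near-identical copies, and the reads of such copies could be divided among them by the estimator. Tmem254c was 15.7 and 12.7 FPKM in WT liver and 2.37 and 2.74 in MKRN1-null liver, and Plac9b was 16.5 and 15.8 against 3.91 and 3.70. In adipose tissue Tmem254c was 31.6 and 19.6 in WT and 6.50 and 0.902 in MKRN1-null, and Plac9b was 220 and 253 against 103 and 61.2. Mir8101 is an annotated hairpin of 111 bases inside the first exon of Hdac5. That exon was covered in other Hdac5 transcripts in every library, so how the estimator divided its fragments is uncertain. Mir8101 was 1.65 and 2.11 FPKM in WT liver and 0.0450 and 0.0335 in MKRN1-null liver. In adipose tissue it was 5.64 and 4.28 against 0.0337 and 0.0612. It passed the filter in both tissues through the WT libraries, as every MKRN1-null value was under 1.

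Among the members higher in both tissues, Slc43a1 (chr2:84839408-84863586), which encodes the amino acid transporter LAT3, had the largest difference in the tissue where each was smaller. It was 0.772 and 0.631 FPKM in WT liver and 6.04 and 7.17 in MKRN1-null liver. The WT adipose libraries held 4.93 and 3.70 FPKM, against 10.1 and 16.8 in the MKRN1-null ones. By the rule, both MKRN1-null libraries of each tissue were above both WT libraries, with log2 differences of 2.16 in liver and 1.41 in adipose tissue. Slc43a1 passed the filter in liver through the MKRN1-null libraries, as both WT liver values were under 1.

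A group of the higher leaders are genes of liver metabolism. Cyp2e1, an ethanol- and ketone-oxidizing cytochrome P450, was 3597 and 3390 FPKM in WT liver and 5917 and 6178 in MKRN1-null liver. Its adipose values were 40.3 and 72.7 FPKM for WT against 451 and 278 for MKRN1-null. The 12 hepatocyte markers, beside this, summed to 5.76 and 8.01 FPKM in WT adipose tissue and 12.6 and 31.9 in MKRN1-null adipose tissue, with 7 and 3 of them under 0.1 in the MKRN1-null libraries and 8 in each WT library. The Cyp2e1 level in adipose tissue was above the sum of those markers in every library, and its source was not tested. Mup17, a major urinary protein, and Serpina3k, a plasma serpin, were at 466 to 5014 FPKM and 1294 to 5643 FPKM in liver, but at 0.738 to 3.23 and 0.352 to 1.46 FPKM in adipose tissue. Both genes and the summed hepatocyte markers were higher in the MKRN1-null adipose libraries. Within each genotype Mup17 was lower in the library with the higher marker sum. Serpina3k was lower there in WT, at 0.352 against 0.467 FPKM, but higher in MKRN1-null, at 1.46 against 1.23. The source of such low levels was not tested. Serpina3k passed the filter in adipose tissue through the MKRN1-null libraries, as both WT adipose values were under 1. Mup17 is in addition a member of a family of near-identical genes, so its share of reads is uncertain.

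Inmt, an amine N-methyltransferase, was 298 and 306 FPKM in WT liver and 552 and 629 in MKRN1-null liver, and 37.7 and 28.2 against 65.6 and 43.7 in adipose tissue. Prodh, which starts the breakdown of proline, was 71.9 and 62.8 FPKM in WT liver and 113 and 98.4 in MKRN1-null liver, and 7.48 and 6.64 against 16.8 and 12.4 in adipose tissue. Etfbkmt, a methyltransferase of the electron transfer flavoprotein, was 11.02 and 13.7 FPKM in WT liver and 24.3 and 38.1 in MKRN1-null liver, and 5.22 and 5.03 against 9.51 and 7.80 in adipose tissue. The rule requires groups that do not overlap, and among these 3 the gap in adipose tissue was narrowest for Inmt.

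Serpine2, an inhibitor of thrombin and urokinase, was 4.34 and 3.38 FPKM in WT liver and 10.9 and 12.4 in MKRN1-null liver, and 52.0 and 47.9 against 77.1 and 79.4 in adipose tissue. Fkbp5, a co-chaperone of the glucocorticoid receptor that glucocorticoids induce, was 9.44 and 4.37 FPKM in WT liver and 17.9 and 16.8 in MKRN1-null liver, and 12.3 and 9.72 against 21.4 and 13.8 in adipose tissue. For both genes replicate 1 of MKRN1-null adipose tissue was also above both WT libraries by a clear margin. For Fkbp5 the margin of replicate 2 was narrow, at 13.8 FPKM against 12.3 in the higher WT library.

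In Fbxo31, Klhl21 and Gstp2 the adipose difference rested on replicate 2, the library with muscle transcripts. Fbxo31, a substrate receptor of a ubiquitin ligase, was 12.2 and 7.26 FPKM in WT liver and 25.8 and 20.4 in MKRN1-null liver, but 6.61 and 6.04 against 7.61 and 22.4 in adipose tissue. Klhl21, an adaptor of a cullin ligase, was 12.7 and 11.4 FPKM in WT liver and 21.7 and 18.2 in MKRN1-null liver, and 6.01 and 6.60 against 7.33 and 42.1 in adipose tissue. Gstp2, a glutathione transferase with a near-identical neighbour Gstp1, was 94.9 and 118 FPKM in WT liver and 141 and 189 in MKRN1-null liver, and 23.3 and 28.9 against 31.3 and 85.0 in adipose tissue. The muscle markers moved with these adipose values, and their part in them was not tested.

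**Figure D4:**
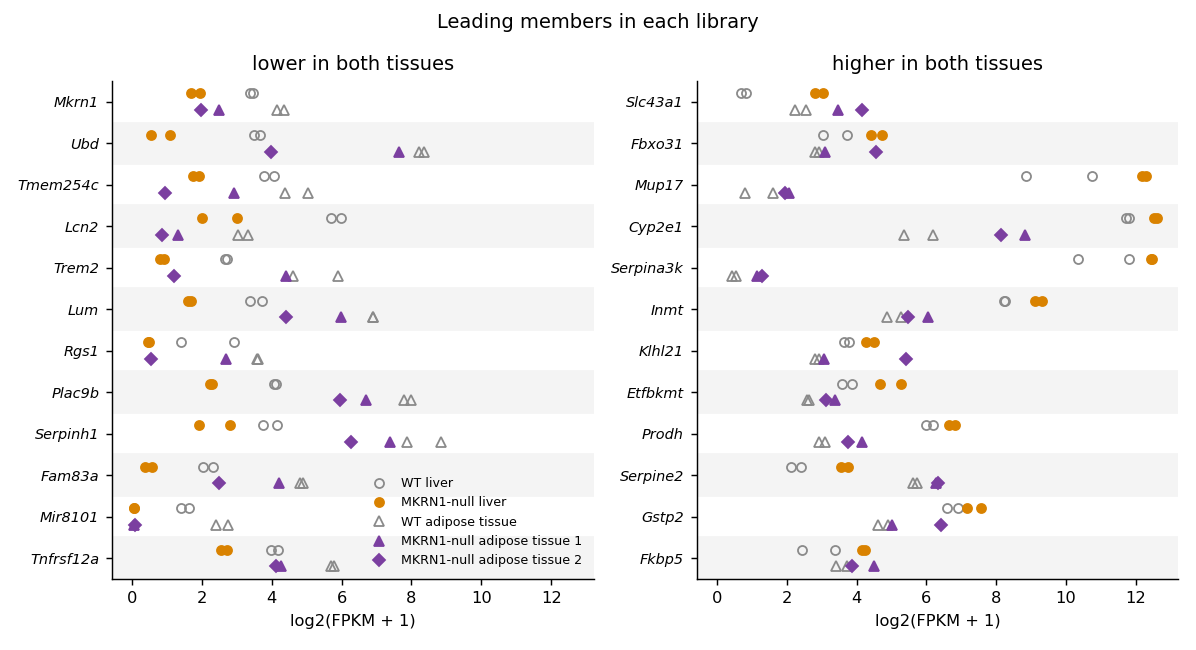
Values in each library of the 12 members lower (left) and the 12 higher (right) with the largest difference in the tissue where it was smaller; the x axis is log2(FPKM + 1), each point is a library, circles are liver, triangles adipose tissue and diamonds MKRN1-null adipose tissue replicate 2. By the rule, the filled MKRN1-null points of every row lie on the same side of the open WT points of their tissue. For Trem2, Ubd, Fbxo31 and Klhl21 the diamond lies far from the filled triangle.

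The sterol synthesis list had the second highest lower share of the lists of 10 or more tested genes. Of its 23 tested genes, 19 were lower in both tissues and 0 were higher, beside 22.6% and 1.41% of all tested genes. At every scaling 13 of the list were lower, beside 8.41% of all tested genes. Its median difference was -0.59 in liver and -0.97 in adipose tissue, beside -0.18 and -0.18 over all genes. In adipose tissue, replicate 1 of MKRN1-null lay at a median of -0.44 from the WT mean against -1.49 for replicate 2.

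Hmgcs1, the cytosolic synthase that makes HMG-CoA, was 89.5 and 123 FPKM in WT liver and 49.4 and 23.7 in MKRN1-null liver. The WT adipose libraries held 201 and 205 FPKM, against 150 and 47.1 in the MKRN1-null ones. Mvd, the decarboxylase that yields isopentenyl diphosphate, was 11.6 and 16.5 FPKM in WT liver and 5.41 and 2.51 in MKRN1-null liver, and 12.8 and 13.2 against 7.11 and 3.32 in adipose tissue. Both genes were lower in every MKRN1-null library of a tissue, as the rule requires, and in each tissue replicate 2 of MKRN1-null was the lowest. Other members lower at every scaling included Sqle, Fdps, Cyp51, Lss, Sc5d, Dhcr7, Msmo1 and the regulator Srebf2. Insig1, Idi1, Mvk, Pmvk, Nsdhl and Hsd17b7 were lower on FPKM but not separated at every scaling. Fdft1 and Ebp were not separated in both tissues, and Tm7sf2 and Stard4 were separated in opposite directions.

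Of 18 tested genes of de novo lipogenesis, 10 were lower in both tissues (55.6%, beside 22.6% of all tested genes) and 0 were higher. At every scaling 7 were lower, beside 8.41% of all tested genes. The list's median difference was -1.05 in liver and -0.63 in adipose tissue, where replicate 1 lay at -0.30 and replicate 2 at -0.97. Fasn, the fatty acid synthase, was 153 and 146 FPKM in WT liver and 43.6 and 32.6 in MKRN1-null liver, and 287 and 271 against 192 and 65.0 in adipose tissue. Acly, which makes cytosolic acetyl-CoA from citrate, was 95.0 and 79.3 FPKM in WT liver and 40.0 and 32.2 in MKRN1-null liver, and 66.7 and 62.6 against 51.0 and 18.2 in adipose tissue. Scd2, a desaturase, was 5.62 and 4.08 FPKM in WT liver and 1.60 and 1.18 in MKRN1-null liver, and 114 and 111 against 76.7 and 17.0 in adipose tissue. By the rule, each of the 3 was below WT in replicate 1 of MKRN1-null adipose tissue also. Acaca, Elovl6, Me1 and Fads2 completed the genes lower at every scaling, Srebf1, Slc25a1 and Mid1ip1 were lower on FPKM alone, and Fads1 was separated in opposite directions. Scd1, Acacb, Elovl5, Acss2, Mlxipl, Thrsp and Gpam were not separated in both tissues.

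The promoters of 2 sterol genes and 2 lipogenic genes are shown because most or many genes of these lists were lower together in both tissues. Each runs from 250 bases before to 50 bases after the start of the transcript, on the gene's own strand, from RefSeq on GRCm38.p6. Capitals mark the CCAAT box, on either strand. This box is bound by the trimeric factor NF-Y and lies near the sites of the sterol-regulated SREBP factors in many such genes.
Hmgcs1 (chr13:119690101-119690400, plus strand): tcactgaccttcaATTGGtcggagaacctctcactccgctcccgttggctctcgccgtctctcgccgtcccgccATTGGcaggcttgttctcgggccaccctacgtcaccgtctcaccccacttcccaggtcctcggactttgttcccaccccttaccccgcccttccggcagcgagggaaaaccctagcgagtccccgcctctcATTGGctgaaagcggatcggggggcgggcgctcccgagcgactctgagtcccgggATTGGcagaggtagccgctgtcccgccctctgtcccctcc
Mvd (chr8:122443373-122443672, minus strand): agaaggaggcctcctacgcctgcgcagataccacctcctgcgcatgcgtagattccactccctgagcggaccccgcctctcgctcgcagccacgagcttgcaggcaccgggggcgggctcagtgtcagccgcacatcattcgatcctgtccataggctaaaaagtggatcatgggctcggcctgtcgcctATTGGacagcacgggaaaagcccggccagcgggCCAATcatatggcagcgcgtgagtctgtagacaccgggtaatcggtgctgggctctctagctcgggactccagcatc
Fasn (chr11:120824498-120824797, minus strand): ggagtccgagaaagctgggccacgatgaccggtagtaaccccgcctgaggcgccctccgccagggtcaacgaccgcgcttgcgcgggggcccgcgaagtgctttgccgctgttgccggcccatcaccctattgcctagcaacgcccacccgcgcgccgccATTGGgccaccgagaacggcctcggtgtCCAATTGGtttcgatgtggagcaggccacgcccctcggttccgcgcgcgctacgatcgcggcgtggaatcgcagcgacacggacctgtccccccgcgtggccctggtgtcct
Acly (chr11:100527951-100528250, minus strand): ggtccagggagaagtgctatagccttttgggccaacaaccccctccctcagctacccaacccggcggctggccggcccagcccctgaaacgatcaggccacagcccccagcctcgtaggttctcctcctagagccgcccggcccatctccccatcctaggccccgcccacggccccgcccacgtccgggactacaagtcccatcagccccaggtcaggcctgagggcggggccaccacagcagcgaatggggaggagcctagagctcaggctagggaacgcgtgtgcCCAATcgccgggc
The Hmgcs1 promoter holds 4 CCAAT boxes, the Mvd promoter 2, the Fasn promoter 3, of which a pair overlap as a palindrome, and the Acly promoter 1, downstream of the start. In all, 7952 of 9917 tested genes had a promoter in the table, and 39.1% of those held a CCAAT box on either strand. Of the 10 lower lipogenic genes 9 had a promoter and 3 of them held the box (33.3%). For the 2245 lower members, the 834 of them lower at every scaling, the 140 higher members and the 19 lower sterol genes, fewer than 80% had a promoter in the table, so that shares over them are void and are not given.

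Of 22 tested genes of lipid droplets and PPARγ targets, 9 were lower in both tissues (40.9%, beside 22.6% of all genes) and 0 were higher. At every scaling 4 were lower, beside 8.41% of all genes. The list's adipose median was -0.13 from the WT mean in replicate 1 and -1.07 in replicate 2, and 10 were lower without the latter. Plin2, the main coat protein of hepatic lipid droplets, was 738 and 760 FPKM in WT liver and 413 and 214 in MKRN1-null liver, and 652 and 682 against 389 and 102 in adipose tissue. Pparg, the nuclear receptor of adipogenesis and a described MKRN1 substrate, was 17.6 and 19.8 FPKM in WT liver and 6.36 and 4.48 in MKRN1-null liver, and 115 and 116 against 102 and 54.5 in adipose tissue. Hilpda, an inhibitor of lipolysis, was 4.18 and 5.198 FPKM in WT liver and 2.36 and 2.40 in MKRN1-null liver, and 51.3 and 68.8 against 21.3 and 7.19 in adipose tissue. Cd36, a fatty acid translocase, was lower on FPKM but was not separated at every scaling, with 1616 and 1603 FPKM in WT adipose tissue and 1546 and 553 in MKRN1-null.

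Of the 17 tested endothelial genes, 15 were lower in both tissues (88.2%, beside 22.6% of all tested genes). This was the highest share among lists of 10 or more genes. At every scaling 9 were lower, beside 8.41% of all tested genes. The list's adipose median was -0.59 from the WT mean in replicate 1 and -1.52 in replicate 2. Eng, a co-receptor of TGF-β on endothelium, was 35.4 and 25.0 FPKM in WT liver and 16.6 and 19.8 in MKRN1-null liver, and 39.1 and 52.9 against 26.1 and 15.2 in adipose tissue. Tie1, an endothelial receptor tyrosine kinase, was 7.46 and 4.29 FPKM in WT liver and 2.76 and 3.54 in MKRN1-null liver, and 17.9 and 25.2 against 9.90 and 5.89 in adipose tissue. Emcn, the sialomucin endomucin, was 4.39 and 3.04 FPKM in WT liver and 1.55 and 1.505 in MKRN1-null liver, and 21.9 and 26.4 against 19.6 and 10.4 in adipose tissue. The 4 endothelial markers, Pecam1, Cdh5, Kdr and Tek, summed to 33.9 and 21.2 FPKM in WT liver and 14.3 and 17.8 in MKRN1-null liver, and to 149 and 196 against 100.1 and 48.3 in adipose tissue, so the marker sum moved with the list and its part was not tested.

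The extracellular matrix list had 15 lower genes of 31 tested (48.4%, beside 22.6% of all tested genes) and 0 higher. At every scaling 12 were lower, beside 8.41% of all tested genes. Besides Lum and Serpinh1, Col4a2, a basement membrane collagen, was 11.4 and 8.82 FPKM in WT liver and 3.12 and 3.02 in MKRN1-null liver, and 358 and 313 against 253 and 90.7 in adipose tissue. The fibrillar collagen genes Col1a1, Col1a2 and Col3a1 were not members, since their groups overlapped in adipose tissue. The median difference of the list was -1.17 in liver and -0.74 in adipose tissue, where replicate 1 lay at -0.13 and replicate 2 at -1.29.

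Of 27 tested macrophage genes 11 were lower in both tissues (40.7%, beside 22.6% of all tested genes) and 0 were higher. All 11 were lower at every scaling, beside 8.41% of all tested genes. The list's adipose median was -0.22 from the WT mean in replicate 1 and -1.70 in replicate 2. Cd68, a macrophage lysosomal glycoprotein, was 15.1 and 9.54 FPKM in WT liver and 4.43 and 4.82 in MKRN1-null liver, and 87.1 and 140 against 86.0 and 19.0 in adipose tissue. Clec7a, the β-glucan receptor dectin-1, was 5.61 and 4.19 FPKM in WT liver and 1.17 and 0.990 in MKRN1-null liver, and 7.89 and 9.75 against 5.57 and 1.72 in adipose tissue. Their liver groups were far apart, but for Cd68 the margin in replicate 1 of MKRN1-null adipose tissue was small. The 5 macrophage markers summed to 116 and 78.3 FPKM in WT liver and 51.0 and 54.0 in MKRN1-null liver, and to 382 and 509 in WT adipose tissue and 372 and 144 in MKRN1-null. The marker sum moved with the list in liver and in replicate 2 of adipose tissue, and its part was not tested. Gpnmb, Spp1, Lgals3, Ctss, Cd9 and Itgax, genes of lipid-laden macrophages, were not members, since replicate 1 of MKRN1-null adipose tissue lay above the lower WT value in each.

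Antigen presentation had 6 lower genes of 20 (30%, beside 22.6% of all tested genes). All 6 were lower at every scaling, beside 8.41% of all tested genes. The list's adipose median lay mostly in replicate 2, at -1.25 from the WT mean, against -0.01 in replicate 1. H2-DMb1, which loads peptides on MHC class II, was 6.24 and 5.87 FPKM in WT liver and 1.90 and 2.24 in MKRN1-null liver, and 73.4 and 72.7 against 54.7 and 12.6 in adipose tissue. The other lower genes were the class I genes H2-K1, H2-D1, H2-Q4 and H2-Q6, whose near-identical family members make read assignment uncertain, and Tap2. The neutrophil list held 10 genes, of which only 3, Lcn2, S100a8 and S100a9, passed the filter in both tissues. All 3 were lower, 2 of them at every scaling, and the rest of the list was not assessed. Of 36 interferon response genes, only 4 were lower, a share of 11.1% that was below the 22.6% of all genes.

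Cell cycle genes were of low level in both tissues. Of 16 tested, 12 were lower in both tissues (75%, beside 22.6% of all tested genes) and 0 were higher. At every scaling 9 were lower, beside 8.41% of all tested genes. The list's adipose median was -0.27 from the WT mean in replicate 1 and -1.13 in replicate 2. Ccnb2, a mitotic cyclin, was 1.44 and 2.23 FPKM in WT liver and 0.412 and 0.354 in MKRN1-null liver, and 4.08 and 3.38 against 2.62 and 0.652 in adipose tissue. Mcm6, a subunit of the replicative helicase, was 2.76 and 3.53 FPKM in WT liver and 1.41 and 1.13 in MKRN1-null liver, and 6.78 and 7.94 against 5.69 and 1.99 in adipose tissue. Mcm5 of the same helicase was 1.73 and 1.76 FPKM in WT liver and 0.634 and 0.416 in MKRN1-null liver, and 4.43 and 4.36 against 3.23 and 0.883 in adipose tissue. Ccnb2 and Mcm5 passed the filter in liver through the WT libraries, as both MKRN1-null liver values were under 1.

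Of 27 tested genes of lysosomes and autophagy, 13 were lower in both tissues (48.1%, beside 22.6% of all genes). Of the 27, 0 were higher and 10 were lower at every scaling, beside 8.41% of all genes. Their adipose median was -0.12 from the WT mean in replicate 1 and -1.07 in replicate 2, and the summed macrophage markers given above were likewise lower in MKRN1-null liver and in replicate 2, a part that was not tested. Lipa, the acid lipase that frees fatty acids and cholesterol from lysosomal lipid, was 119 and 112 FPKM in WT liver and 66.6 and 50.8 in MKRN1-null liver, and 40.2 and 57.0 against 34.3 and 11.2 in adipose tissue. The cathepsin gene Ctsd was 274 and 238 FPKM in WT liver and 167 and 144 in MKRN1-null liver, and 1737 and 1808 against 1391 and 593 in adipose tissue. The lower genes were mostly hydrolases and their carriers, including Ctsa, Ctsb, Ctsl, Ctsz, Hexa, Npc2 and Psap, and the autophagy genes Becn1, Map1lc3a, Map1lc3b, Gabarap and Sqstm1 were not members.

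**Figure D5:**
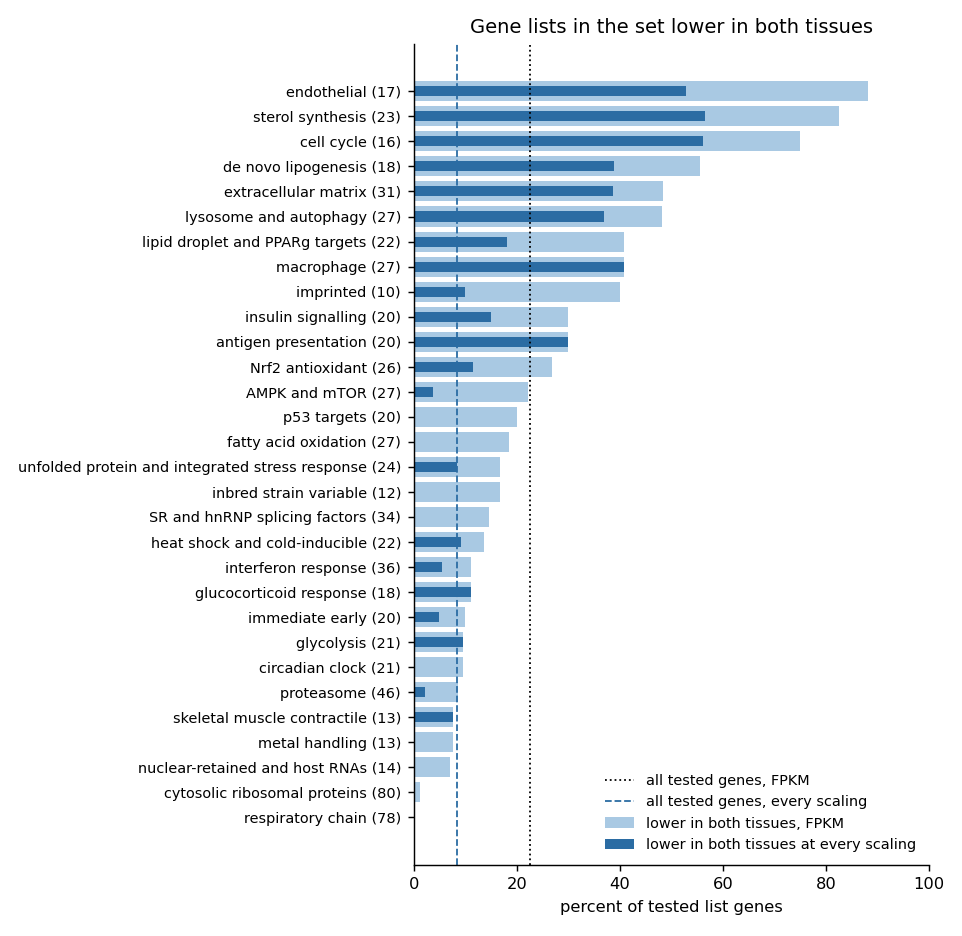
Share of the tested genes of each list (x axis, percent; number tested in brackets) that were lower in MKRN1-null in both tissues on FPKM (light bars) and at every scaling (dark bars), for lists with 10 or more tested genes. Endothelial, sterol synthesis and cell cycle genes have the longest bars, and the dotted and dashed lines mark 22.6% and 8.41% of all tested genes.

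On FPKM, lists of kinases and signalling were near the 22.6% of all tested genes that were lower in both tissues. At every scaling the share of all tested genes was 8.41%. Of 27 tested AMPK and mTOR genes 6 were lower (22.2%) and 0 were higher, and only Strada, the STRADα pseudokinase of the LKB1 complex, was lower at every scaling. Strada was 2.06 and 1.95 FPKM in WT liver and 1.15 and 1.11 in MKRN1-null liver, and 6.27 and 7.13 against 3.85 and 3.74 in adipose tissue. Prkaa1 and Prkaa2, which encode the AMPK α subunits, were not members. Of 20 tested insulin signalling genes 6 were lower (30%), and Gsk3b, Ptpn1 and Pik3r2 were lower at every scaling. Of 20 tested p53 target genes 4 were lower (20%), 0 of them at every scaling. Cdkn1a, which encodes p21, was 9.03 and 14.3 FPKM in WT liver and 3.45 and 0.786 in MKRN1-null liver, but was not a member, since replicate 1 of MKRN1-null adipose tissue, at 83.1, was above both WT values of 73.5 and 72.7.

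Some stress genes that respond to glucocorticoids and to the integrated stress response were members. Sgk1, a kinase induced by glucocorticoids, was 16.8 and 8.51 FPKM in WT liver and 4.03 and 4.91 in MKRN1-null liver, and 77.3 and 35.0 against 19.5 and 23.2 in adipose tissue, opposite in direction to Fkbp5. Ddit4, an inhibitor of mTORC1 induced by stress, was 8.82 and 3.99 FPKM in WT liver and 2.82 and 1.70 in MKRN1-null liver, and 89.1 and 74.9 against 34.5 and 8.49 in adipose tissue. Atf3, a stress-induced transcription factor, was 4.22 and 3.74 FPKM in WT liver and 1.10 and 1.75 in MKRN1-null liver, and 66.5 and 15.3 against 6.46 and 2.52 in adipose tissue. Fgf21, a hormone of liver energy stress, was 15.7 and 21.1 FPKM in WT liver and 9.42 and 3.01 in MKRN1-null liver, and at 0.465 to 2.66 in adipose tissue. The lists themselves had smaller lower shares than the 22.6% of all genes, with 2 of 18 glucocorticoid response genes (11.1%, and 1 higher), 2 of 20 immediate early genes (10%) and 4 of 24 genes of the unfolded protein and integrated stress response (16.7%). Without replicate 2 of MKRN1-null adipose tissue, 5 immediate early genes were lower, and 3 glucocorticoid response genes were lower and 2 higher.

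In 3 large lists hardly any gene was lower in both tissues, beside 22.6% of all tested genes. Of 80 tested cytosolic ribosomal protein genes 1 was lower, of 46 proteasome genes 4 were lower and of 78 respiratory chain genes 0 were lower, and 0 were higher in each. Without replicate 2 of MKRN1-null adipose tissue, 7 respiratory chain genes and 7 proteasome genes were lower, and 5 ribosomal genes and 1 proteasome gene were higher. After median-of-ratios scaling, 40 of the 80 ribosomal genes, 6 of the 46 proteasome genes and 14 of the 78 respiratory chain genes were higher in both tissues. The lower genes were 0, 1 and 0. Of all tested genes 10.1% were higher and 10.8% lower at that scaling. The counts thus depended on the scaling, and the higher share was largest in the ribosomal list. Median differences of the ribosomal list were -0.08 in liver and -0.05 in adipose tissue on FPKM and 0.14 and 0.17 after scaling. Fatty acid oxidation had 5 lower and 1 higher of 27 genes, 0 at every scaling, and 7 lower and 2 higher without that replicate. The circadian clock had 2 lower of 21, Csnk1d and Csnk1e, 0 at every scaling.

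The counts of the remaining lists stand beside 22.6% of all tested genes lower, 1.41% higher and 8.41% lower at every scaling. Nrf2 antioxidant genes had 7 lower of 26 (26.9%), with Hmox1, Taldo1 and Srxn1 lower at every scaling. Glycolysis had 2 lower of 21 (9.52%), Pgam1 and Pfkl. Imprinted genes had 4 lower of 10 (40%), of which Impact was lower at every scaling. Heat shock genes had 3 lower of 22, metal handling 1 of 13, splicing factors 5 of 34, strain-variable genes 2 of 12 and nuclear-retained and host RNAs 1 lower and 1 higher of 14, the higher being Snhg12. The hepatocyte list had 2 higher of 8, Cyp2e1 and Serpina1c, and the adipocyte list 1 higher of 9. That was Adrb3, the β3-adrenergic receptor of fat cells, at 28.0 and 54.6 FPKM in WT adipose tissue and 93.3 and 93.6 in MKRN1-null. The muscle list had 1 lower of 13, Tpm3. Red blood cell, lymphocyte and brown adipocyte lists had 0 members of 5, 4 and 3. Without replicate 2 of MKRN1-null adipose tissue, lower genes numbered 7 in glycolysis, 7 among imprinted genes, 3 among muscle genes, 2 in metal handling, 3 among strain-variable genes and 1 among brown adipocyte genes, and higher genes numbered 2 among nuclear-retained and host RNAs, 1 among red blood cell genes and 1 in the interferon list.

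The tissue in which members were more abundant was taken from the WT libraries, whose values also entered the rule within each tissue, so the shares are a description. In these libraries, tested between adipose tissue and liver by limma with Benjamini-Hochberg adjustment over all genes, 4867 genes were higher in adipose tissue (49.1%) and 1115 were higher in liver (11.2%). No scaling between the tissues was applied, so the balance of these shares can depend on scaling. Of the 2245 lower members, 64.3% were higher in adipose tissue and 7.66% higher in liver. Of the 140 higher members, 19.3% were higher in adipose tissue and 35.7% higher in liver. Those separated at every scaling differed from all genes in the same way, with 65.0% and 9.23% for lower members and 13.0% and 46.8% for higher members. The median difference, WT adipose tissue minus WT liver, was 0.81 on the log2 scale for lower members, -0.17 for higher members and 0.52 over all tested genes.

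Lower members had longer transcripts, with a median of 3322 bases, against 2156 for higher members and 2770 for all tested genes. Their median level over the 8 libraries was 8.66 FPKM, against 12.7 and 10.3. In all, 99.3% of lower and 93.6% of higher members were protein-coding, beside 97.4% of all. By chromosome, lower members made up 17.8% (chromosomes 13 and X) to 25.3% (chromosomes 10 and 19) of tested genes. Within 10 Mb of Mkrn1 on chromosome 6 21 of 79 tested genes were lower (26.6%) and 1 was higher, and 8.86% were lower at every scaling, beside 8.41% of all genes. Lower at every scaling there were Akr1b8, Parp12, Arhgef5, Gimap4, Gimap6, Tmem176a and Tmem176b, and the higher gene was Zfp956, a zinc finger gene.

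Of the lower members, 223 had both MKRN1-null liver values under 1 FPKM and 20 had both MKRN1-null adipose values under 1. These passed the filter in that tissue through the WT libraries, as they had to differ in order to pass. Among higher members, 2 had both WT liver values under 1 FPKM and 6 had both WT adipose values under 1. The members just inside the limit were Spata24, at 5.5907 FPKM in the lower WT adipose library and 5.5905 in the higher MKRN1-null one, and Vrk1, at 4.7748 and 4.7744. Just outside were Bcl2a1d, at 2.97097 FPKM in the lower WT adipose library and 2.97106 in the higher MKRN1-null one, and Znhit3, at 10.952 in the higher WT and 10.9516 in the lower MKRN1-null adipose library. When all 8 libraries were set side by side, regardless of tissue, 191 of the 9917 tested genes had every MKRN1-null value below every WT value. In 19 of the 9917 every MKRN1-null value was above.

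Transcripts were also examined one by one. Of 11936 tested transcripts 2263 were lower in both tissues and 191 were higher. Among all 36780 transcripts, the filter above was then replaced by 0.5 FPKM or more in each library of the higher genotype. In 6 of them every MKRN1-null value was more than 4-fold below every WT value, across both tissues. In 2 it was more than 4-fold above. The former were NM_001284248 of Hdac5, NM_008663 of Myo7a, NM_001130186 of Jade1, NM_001271760 of Adra1a, NM_001270499 of Tmem254c and Mir8101. The latter were NM_001256081 of Myo7a and NM_030690 of Rai14. Hdac5, a class IIa histone deacetylase, was not a member as a gene, yet NM_001284248 was 4.07 and 2.97 FPKM in WT liver and 0.226 and 0.225 in MKRN1-null liver, and 5.80 and 4.85 against 0.357 and 0.741 in adipose tissue. NM_010412 of the same gene was higher, at 2.33 and 2.68 FPKM in WT liver and 5.63 and 3.95 in MKRN1-null liver, and 3.49 and 3.46 against 10.6 and 12.4 in adipose tissue. The Myo7a pair also moved in opposite directions. Transcripts of a gene share most exons, so that the estimator divides their reads and the split between them is uncertain.

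Against the members, 667 genes (6.73%) were separated in both tissues but in opposite directions. The interaction of tissue and genotype in limma called 0 genes at an adjusted p below 0.05 (0%), with 766 at an unadjusted p below 0.05, while without replicate 2 of MKRN1-null adipose tissue it called 314. Cd24a, a sialoglycoprotein, was 6.70 and 5.76 FPKM in WT liver and 0.853 and 0.883 in MKRN1-null liver, but 2.72 and 3.86 in WT adipose tissue and 5.68 and 83.3 in MKRN1-null. Gpx3, the secreted glutathione peroxidase, was 9.71 and 8.64 FPKM in WT liver and 3.06 and 3.26 in MKRN1-null liver, but 143 and 152 against 300 and 378 in adipose tissue. Angptl8, a regulator of lipoprotein lipase, was 43.4 and 78.2 FPKM in WT liver and 155 and 181 in MKRN1-null liver, but 48.1 and 79.6 against 10.9 and 3.37 in adipose tissue. Epcam, an epithelial marker, beside Cd24a, was 4.25 and 2.81 FPKM in WT liver and 0.444 and 0.545 in MKRN1-null liver, and at most 0.0430 in adipose tissue. In Gpx3 and Angptl8 both MKRN1-null adipose replicates lay far from WT, whereas the high value of Cd24a was that of replicate 2. Cd24a passed the filter in liver through the WT libraries, as both MKRN1-null liver values were under 1.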

How the data were processed

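Poly(A) mRNA of 8 libraries (TruSeq kit, Illumina HiSeq) was analysed. Per the file headers and the submitters' processing notes, the authors aligned reads to mm10 with HISAT2, sorted them with SAMtools and estimated 36780 given RefSeq transcripts with StringTie 1.3.3b, without pooling replicates. No version of the aligner or sorter is given in the sources used here. The deposited values are FPKM, TPM and coverage, FPKM and TPM being each scaled within a library, so that a few abundant genes change the level of all others. No read counts were used, so the depth behind a value is known only from coverage, as 5.72 to 9.24 gigabases per library, and no counting interval is given.

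FPKM was summed over 24532 gene ids, of which 24462 matched RefSeq by id and 9 by transcript. Genes with an FPKM of at least 1 in 2 libraries of each tissue were kept. Differences are of means of log2(FPKM + 1) and understate the change of low genes. The members and the 38 gene lists were chosen with earlier results of these data known, and lists came from general knowledge of each pathway. Leaving out provisional names, the text names the 12 members of each direction with the largest difference in the tissue where it was smaller, up to 3 members of each list with the largest such difference, 6 genes separated in opposite directions and the genes nearest to the limit. Other genes named were chosen after their values were seen. Some genes of the lists are not reported here by name. The number of per-sample columns not used was 0.

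Fits used limma 3.58.1 in R 4.3.3 with a mean-variance trend and Benjamini-Hochberg adjustment over 9917 genes, for genotype with tissue as covariate, for their interaction, and for tissue in WT. With 2 libraries a group, p-values measure the spread between these libraries, which the labels do not tie to separate mice. The fit was tested on data with known answers. Other steps ran in Python 3.11.15 (pandas 2.3.3, numpy 2.4.6), and figures were drawn by matplotlib 3.10.9. Promoters came from RefSeq on GRCm38.p6, searched for CCAAT on both strands.

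Alternatives were TPM, FPKM rescaled without muscle contractile genes, median-of-ratios and quantile scaling, a minimum FPKM of 5 or none, a pseudocount of 0.1, a gap of 0.1 or a difference of 0.58 on the log2 scale, no variance trend, transcripts in place of genes, the replicate number or mouse as a term, and each library left out. The set separated at every scaling, the set across all 8 libraries, and median-of-ratios scaling without replicate 2 of MKRN1-null adipose tissue were added after the data were seen.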

Additional observations from a re-analysis of the deposited data

Results flagged for a closer look

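In all, 667 genes had both MKRN1-null values on opposite sides of WT in liver and in adipose tissue. The difference in adipose tissue minus that in liver was tested by the interaction term of limma, which called 0 genes at an adjusted p below 0.05 and 766 at an unadjusted p below 0.05. The 3 genes of each direction below had the largest log2 difference in the tissue where it was smaller.

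Cd24a had a difference of 4.43 between the tissues, Gpx3 of 2.48 and Slc25a4, the muscle and heart form of the mitochondrial ADP/ATP carrier, of 2.73, all lower in MKRN1-null liver and higher in MKRN1-null adipose tissue. Slc25a4 was 242 and 257 FPKM in WT adipose tissue and 271 and 2210 in MKRN1-null, so its high value was that of replicate 2, the library rich in muscle transcripts. Spry4, an inhibitor of receptor tyrosine kinase signalling, had a difference of -3.25, Angptl8 of -4.64 and Cela1, an elastase, of -3.15, all higher in MKRN1-null liver and lower in MKRN1-null adipose tissue. Spry4 was 2.25 and 2.45 FPKM in WT liver and 8.34 and 9.83 in MKRN1-null liver, and 22.97 and 15.6 against 7.87 and 3.49 in adipose tissue. By limma, the interaction had adjusted p-values of 0.097 for Gpx3, 0.19 for Spry4, 0.26 for Angptl8, 0.51 for Cela1, 0.55 for Cd24a and 0.66 for Slc25a4. These genes were chosen by the same contrast in the same libraries, so nothing is read from these p-values.

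Of 78 tested respiratory chain genes, 31 were separated in opposite directions, and 72 were lower in MKRN1-null liver. The list's median in adipose tissue was 0.08 from the WT mean in replicate 1 and 0.56 in replicate 2, beside 81619 FPKM of muscle markers in the latter, whose part was not tested.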

How the results depend on the processing

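The counts changed most with scaling, with the library left out and with the separation asked for, and the causes were not tested. Lower and higher genes in both tissues numbered 1075 and 999 on median-of-ratios values, 928 and 1224 on quantile values, 3397 and 77 with TPM, 1145 and 85 at a minimum FPKM of 5, 3489 and 256 with no minimum (1009 opposite), 1158 and 61 with a gap of 0.1 (219 opposite), 458 and 12 with a difference of 0.58 (39 opposite), and, added after the data were seen, 834 and 77 at every scaling (182 opposite), 1427 and 1412 after median-of-ratios scaling without replicate 2 of MKRN1-null adipose tissue (2000 opposite) and 191 and 19 across all libraries. Leaving out 1 library gave 2409 to 4496 lower, 195 to 381 higher and 869 to 2053 opposite genes. The most lower genes came without replicate 1 of MKRN1-null adipose tissue (300 higher, 1604 opposite), and the most higher and opposite genes without its replicate 2. Higher genes were 254 without WT liver replicate 1 (1038 opposite), 231 without MKRN1-null liver replicate 1 and 265 without WT adipose tissue replicate 2 (1133 opposite).

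In limma, the lower and higher genes called were 4 and 1 at a minimum FPKM of 5, 6 and 2 after median-of-ratios scaling, 1 and 0 with no minimum, 3 and 0 after quantile normalization, 7 and 0 with TPM or a pseudocount of 0.1, 237 and 8 rescaled without muscle genes, and 1 and 0 on the mean of the tissues per mouse. With 1 library left out they were 0 to 2579 and 0 to 69, the highest without replicate 1 of MKRN1-null adipose tissue, and 73 and 8 without its replicate 2. Without a liver library, or without WT adipose tissue replicate 1 or 2, at most 1 was called in each direction. The interaction called 16 genes with no minimum, 3 after quantile normalization, 1 rescaled without muscle genes and 0 to 2647 with 1 library left out, 2647 and 314 being without replicates 1 and 2 of MKRN1-null adipose tissue. A group left with 1 library is assumed to vary like the others.

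With the replicate number as a block, limma called 2 lower and 0 higher genes and 1 interaction. Deviations of same-numbered libraries correlated at -0.04 (liver) and 0.09 (adipose tissue) between genotypes, and at 0.08 (WT) and 0.09 (MKRN1-null) between tissues. With 2 libraries a group, these values cannot tell whether same-numbered libraries came from the same mouse. The main fit did not pair them.

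Of 216 differences of 108 named members, 7 turned direction under an alternative. In liver these were Bmp6 at 0.1145 on quantile-normalized values, Wdfy1 at 0.0317 on median-of-ratios and 0.0403 on quantile values, Rps16 at 0.0424 on median-of-ratios values, and Vrk1 at 0.0687 on median-of-ratios and 0.2113 on quantile values. In adipose tissue they were Wdfy1 at 0.0131 on quantile values, Btaf1 at 0.0161 on median-of-ratios and 0.0516 on quantile values, and Psmb5 at 0.0203 on median-of-ratios values.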
